A study of Mus musculus with 4 samples.

Results

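The 31 genes described here are macrophage genes, read in brown adipose tissue of mice with and without the transcription factor ATF4 in their thermogenic adipocytes. They were chosen by symbol. All 31 were found among the 52022 genes with at least 1 matched transcript, and all 31 passed the filter on low counts that left 15643 genes for testing. They comprise 6 macrophage identity genes, 3 lysosomal and scavenger genes, 3 complement C1q genes, 4 Fc receptor and adaptor genes, 4 resident macrophage genes, 4 lipid-associated macrophage genes, 4 monocyte genes and 3 further genes. The rule for the set names the resident and the lipid-associated genes. It names no monocyte gene, so the monocyte class (Ccr2, Cx3cr1, Itgam and Cd14) was chosen here from the 31.

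RNA-seq was done on 4 libraries of whole brown adipose tissue from male mice fed ad libitum after 12 weeks on a diet with 60% fat. Both groups share sex, diet and feeding state. The ATF4 BAT KO group (KO) has 2 libraries, KO 1 and KO 2, and the wild-type group (WT) has 2, WT 1 and WT 2. The sources used here do not say how ATF4 was deleted, which promoter drove the deletion or how old the mice were. Library names begin with S1 for KO 1 and WT 2 and with S2 for KO 2 and WT 1, and what this prefix marks is unstated. The labels do not say that the libraries come from separate animals, so every p-value reflects only how these 4 libraries vary.

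Macrophages are phagocytes that clear dying cells and debris, and they depend on the receptor CSF1R for survival. In adipose tissue, resident macrophages that carry MRC1, LYVE1, FOLR2 and CD163 lie along vessels and in the stroma. Macrophages that take up lipid around dying adipocytes express TREM2, GPNMB, SPP1 and LGALS3. Monocytes enter from the blood through CCR2 and can replenish both kinds.

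Many macrophage genes are driven by the lineage factor PU.1, whose binding sites often hold the core GAGGAA. The promoters of the genes on which the results turn are therefore shown first. Of the 31 genes, 23 had an entry in the RefSeq promoter table for GRCm38.p6. The missing ones were Adgre1, Csf1r, Msr1, C1qa, Tyrobp, Lyve1, Cd14 and Clec10a. Each sequence is the 250 bases before the annotated start, 5′ to 3′ on the gene's own strand, with GAGGAA or its reverse complement TTCCTC in capitals. Ctss lies at chr3:95526536-95526785 (plus strand), Spp1 at chr5:104434861-104435110 (plus), Trem2 at chr17:48346151-48346400 (plus), Gpnmb at chr6:49036268-49036517 (plus) and C1qb at chr4:136886201-136886450 (minus). None of these windows overlaps an exon. Ctss and Spp1 are the 2 genes called lower in KO once the prefix was a term of the fit. Trem2 and Gpnmb are the other lipid-associated genes with a window free of exons. C1qb is an example of the genes that differed by prefix.
Ctss: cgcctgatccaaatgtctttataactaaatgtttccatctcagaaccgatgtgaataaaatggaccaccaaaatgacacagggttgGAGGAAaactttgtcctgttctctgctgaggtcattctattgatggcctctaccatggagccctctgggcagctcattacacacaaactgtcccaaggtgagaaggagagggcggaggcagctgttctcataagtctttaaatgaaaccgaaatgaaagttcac
Spp1: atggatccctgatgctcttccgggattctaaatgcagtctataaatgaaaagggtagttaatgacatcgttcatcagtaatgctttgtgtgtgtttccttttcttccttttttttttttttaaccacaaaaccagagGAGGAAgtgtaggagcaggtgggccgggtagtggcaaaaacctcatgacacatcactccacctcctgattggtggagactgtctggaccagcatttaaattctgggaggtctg
Trem2: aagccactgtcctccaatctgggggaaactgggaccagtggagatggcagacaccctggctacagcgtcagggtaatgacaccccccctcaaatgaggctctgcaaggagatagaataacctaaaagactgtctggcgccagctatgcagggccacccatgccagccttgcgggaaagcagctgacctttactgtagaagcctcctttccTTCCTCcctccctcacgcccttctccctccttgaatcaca
Gpnmb: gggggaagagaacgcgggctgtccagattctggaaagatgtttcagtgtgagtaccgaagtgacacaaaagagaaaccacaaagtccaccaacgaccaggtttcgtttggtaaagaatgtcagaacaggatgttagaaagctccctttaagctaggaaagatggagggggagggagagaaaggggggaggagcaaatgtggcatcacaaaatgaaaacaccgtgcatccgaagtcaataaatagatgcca
C1qb: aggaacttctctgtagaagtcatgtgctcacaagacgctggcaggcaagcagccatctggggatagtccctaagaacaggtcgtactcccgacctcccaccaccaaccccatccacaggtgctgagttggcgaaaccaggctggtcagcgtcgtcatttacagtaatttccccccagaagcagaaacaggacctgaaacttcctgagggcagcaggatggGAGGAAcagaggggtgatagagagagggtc
On either strand the core was present in 12 of the 23 windows (52.2%) and in 7639 of 32851 windows of the same length across the table (23.3%). The 12 were Aif1, Laptm5, Cd68, Ctss, C1qb, C1qc, Fcgr1, Fcgr3, Mrc1, Trem2, Spp1 and Itgam. Among them the windows of Aif1, Laptm5, C1qc, Fcgr3 and Mrc1 overlap exons of the same gene, as do some windows without the core. The annotated starts used for Aif1 and Ccr2 lie 3233 and 3443 bases from that of the gene's most abundant transcript. The Gpnmb window shown has no match to the core, and neither do the windows of Mpeg1 and Lyz2, which differed by prefix as C1qb did. The composite C/EBP and ATF letters TGATGNAA, searched on both strands because ATF4 binds such elements, were in 0 of the 23 windows and in 3.45% of all windows. The AP-1 letters TGANTCA were in 4 of the 23 (Cd68, Folr2, Trem2 and Itgax) and in 6.75% of all windows, and the E-box CACGTG in 0 of the 23 and in 6.02%. A match describes the letters in this window and does not mark a bound site. Other forms of a PU.1 site were not searched, so a window with no match may still hold one.

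Libraries held 25985367 to 34813870 estimated counts, with KO 1 the shallowest. Mitochondrially encoded genes took 38.9% of the counts in KO 1 and 33.0 to 34.1% in the other 3 libraries. Atf4 itself stood at 29.2 (WT 1), 107 (WT 2), 25.0 (KO 1) and 24.5 (KO 2) CPM, which are counts scaled to a common library total with TMM factors. WT 2 stood far above the other 3, and WT 1 was close to the KO libraries. The sources used here do not say which part of the gene was deleted, so reads outside it could remain in KO. Within prefix S2, Atf4 differed little between KO 2 (24.5 CPM) and WT 1 (29.2 CPM). Why WT 1 was low was not tested. A list of 12 skeletal muscle genes summed to 3084 and 2808 CPM in KO 1 and KO 2 and to 2.84 and 15.3 CPM in WT 1 and WT 2, and 11 of the 12 were called higher in KO. The KO libraries thus held muscle RNA that the WT libraries nearly lacked, and its part in the results below was not tested.

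No macrophage gene passed the test between genotypes. In the edgeR quasi-likelihood test with genotype as the sole term, 0 of 31 were called lower in KO and 0 higher at an adjusted p of 0.05 over all genes. Over all tested genes 0.0128% were called lower and 0.767% higher. DESeq2, limma-voom and limma on log2 TPM also called 0 of the 31. With no filter on low counts, edgeR called 6 lower (Adgre1, Cd68, Ctss, Gpnmb, Lgals3 and Spp1), against 0.473% of the 26873 genes then tested. For Adgre1 and Spp1 the genotypes overlapped. Their fitted log2 fold changes were -0.82 and -1.96 without the filter and -0.83 and -1.96 with it. At an unadjusted p under 0.05, 4 of the 31 were lower in KO (Cd68, Trem2, Gpnmb and Lgals3), against 1.50% of all genes. All 31 fitted changes were below 0, as were 49.7% of those of all genes, and their median log2 fold change was -0.70, against 0.00 over all genes. In whole tissue, fewer macrophages and less of these RNAs per macrophage cannot be told apart.

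The shortfall was mainly that of library KO 1. KO 1 was the lowest of the 4 libraries for 28 of the 31 genes, against 34.9% of all genes, and the exceptions were Spp1, Cx3cr1 and Cd9. Summed over the 31 genes, they gave 655 (WT 1), 558 (WT 2), 212 (KO 1) and 538 CPM (KO 2). KO 2 therefore lay close to the WT libraries while KO 1 held less than any other. Each KO library lay below each WT library for 13 of the 31, against 13.1% of all genes. Without KO 1 the median log2 fold change of the 31 was -0.15 and 21 stayed below 0. Without KO 2 it was -1.51 and 30 stayed below 0.

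**Figure D1:**
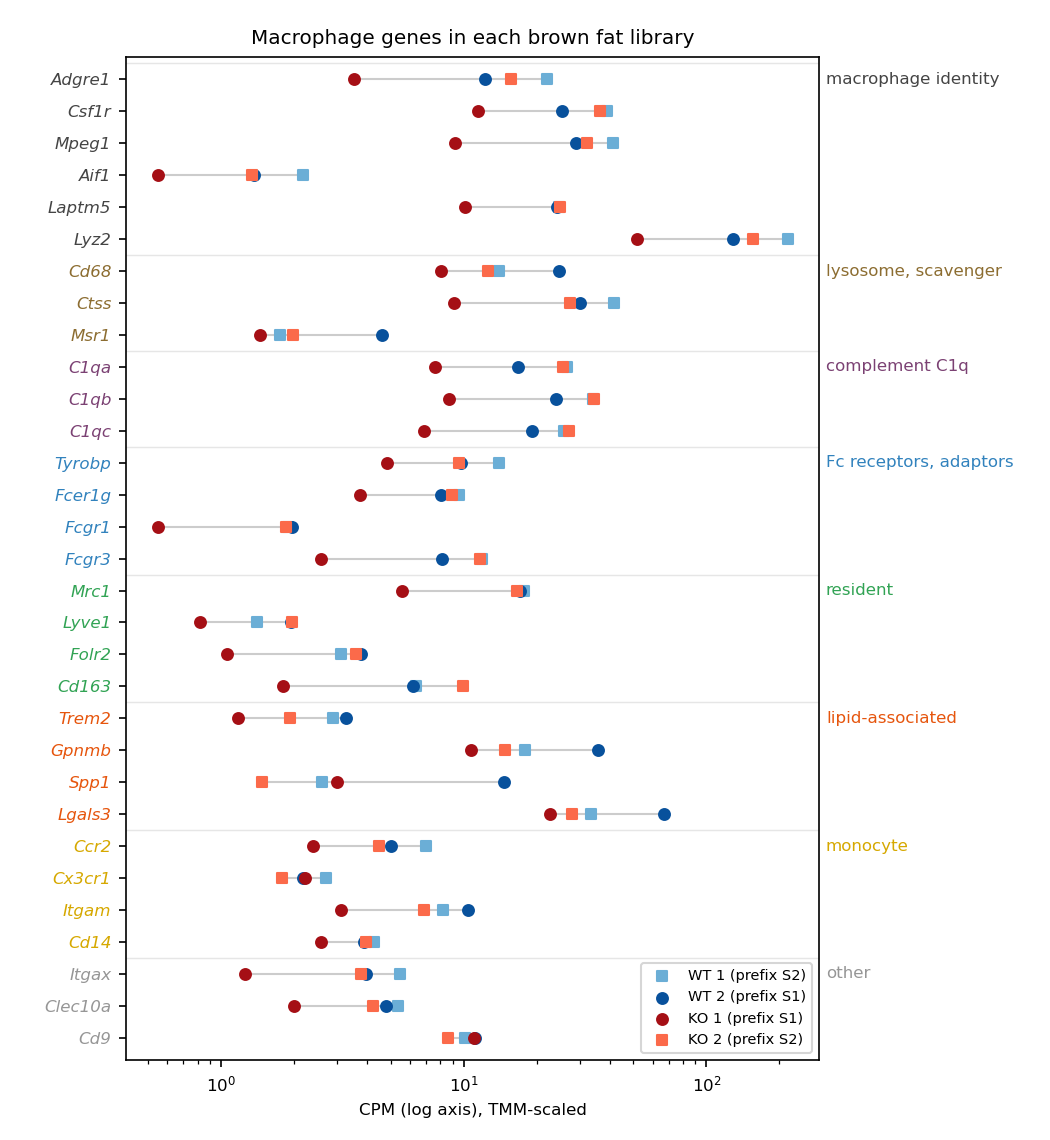
Level of each of the 31 macrophage genes in the 4 libraries, in TMM-scaled CPM on a log axis. Points are single libraries, grey lines span the lowest to the highest, and labels on the right name the class. KO 1 is the leftmost point for 28 of the 31 genes.

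Within each prefix, 1 KO library can be set beside 1 WT library, with no replicate and so no test. Between KO 1 and WT 2 (prefix S1), the median difference in log2 CPM over the 31 genes was -1.47, and 30 of 31 were lower in KO 1. Between KO 2 and WT 1 (prefix S2), the median was -0.23, with 24 lower and 7 higher in KO 2. Over all genes the medians were -0.01 and 0.00. In total 23 of the 31 were lower in KO within both prefixes, against 26.5% of all genes. For 29 of the 31 the KO library was lower relative to WT by more in S1 than in S2, against 52.5% of all genes, and Cx3cr1 and Cd9 were the exceptions.

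**Figure D2:**
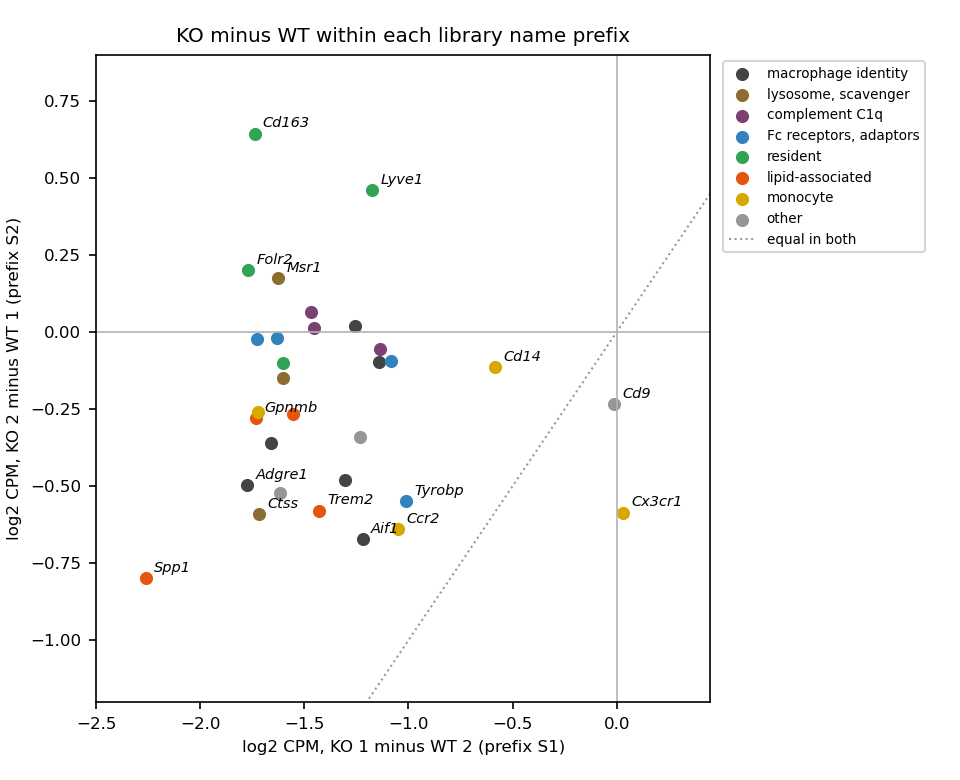
Difference in log2 CPM between KO and WT for each of the 31 genes, within prefix S1 on the horizontal axis and within prefix S2 on the vertical axis, coloured by class. For 29 of the 31 genes the point lies above the dotted line of equal difference, and the resident genes Cd163, Lyve1 and Folr2 lie above 0 in S2.

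With the prefix added to genotype in the edgeR fit, 2 of the 31 were called lower in KO, against 0.473% of all genes, and 0 higher, against 1.57%. The first was Ctss, which encodes the lysosomal protease cathepsin S that trims invariant chain for antigen presentation (chromosome 3, 95526786 to 95556403). Ctss stood at 41.5 (WT 1), 30.1 (WT 2), 9.11 (KO 1) and 27.5 CPM (KO 2). Both KO libraries lay below both WT libraries, KO 2 by little. The log2 fold change with the prefix was -1.13 (SE 0.23, adjusted p = 0.0347), and with genotype alone -0.96 (SE 0.50, adjusted p = 0.9998). Without KO 1 the latter was -0.38, and the differences in log2 CPM were -1.72 within S1 and -0.59 within S2. The second was Spp1, described with its class below. This fit leaves 1 residual degree of freedom, and with the replicate number in place of the prefix 0 of the 31 were called.

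**Figure D3:**
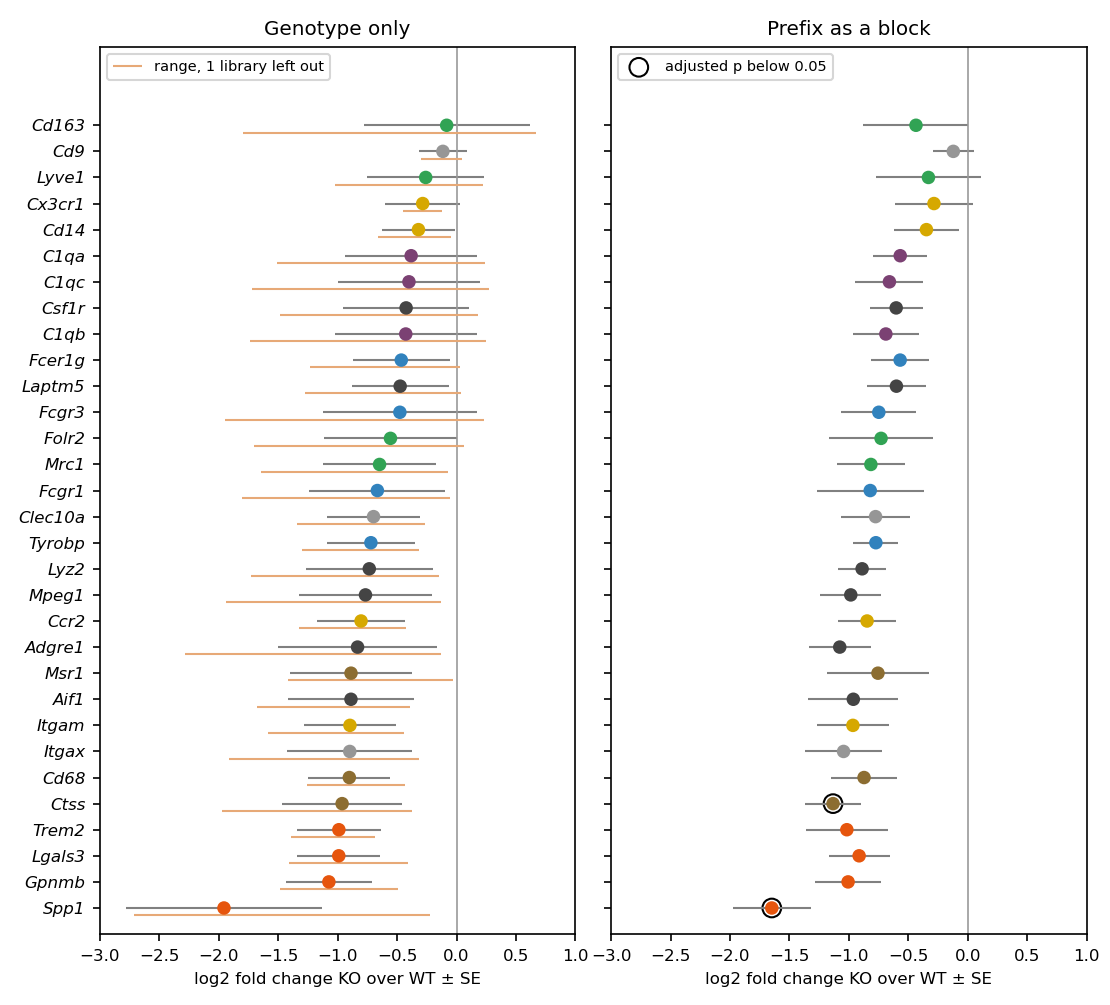
Fitted log2 fold change, KO over WT, of the 31 genes with its SE, from genotype alone on the left and with the prefix as a block on the right, coloured by class as in the plot of levels. Pale bars on the left span the values with 1 library left out in turn, and rings on the right mark Ctss and Spp1.

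Of the 6 identity genes 0 passed the test, and the median of their log2 fold changes was -0.75. Lyz2, the myeloid lysozyme, was the most abundant of the 31 per length, at 186 (WT 1), 119 (WT 2), 40.2 (KO 1) and 137 (KO 2) TPM, transcript abundance per length on a fixed total. In CPM it stood at 216, 128, 51.9 and 155 in the same order, so that KO 2 lay between the WT libraries. Its log2 fold change was -0.73 (SE 0.53), and -0.89 with the prefix (SE 0.20, adjusted p = 0.0582). Reads may be shared with its close relative Lyz1 (1.45 to 4.72 CPM), which was not measured and makes Lyz2 uncertain to a small degree.

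Adgre1, which encodes the F4/80 surface antigen, stood at 22.0 (WT 1), 12.2 (WT 2), 3.52 (KO 1) and 15.6 CPM (KO 2). The genotypes overlapped, since KO 2 lay above WT 2. Mpeg1, the pore-forming perforin-2 of phagosomes, stood at 41.2, 29.1, 9.18 and 32.1 CPM in the same order and had the same ranking. Aif1, the actin-bundling protein IBA1, was the 1 identity gene without overlap, at 2.17, 1.36, 0.547 and 1.34 CPM, but KO 2 and WT 2 were nearly equal. Laptm5, a lysosomal membrane protein of blood cells, stood at 24.6, 24.2, 10.1 and 25.0 CPM, so that 3 libraries agreed closely and KO 1 stood apart.

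Csf1r, the receptor for the growth factors CSF1 and IL-34, stood at 38.9 (WT 1), 25.4 (WT 2), 11.5 (KO 1) and 36.4 CPM (KO 2). Its fitted log2 fold change was -0.42 (SE 0.53). The deposited transcript values split this gene. The 3870-base coding transcript was at 8.50 (WT 1), 5.12 (WT 2), 0.475 (KO 1) and 7.84 TPM (KO 2). The 4701-base coding transcript was at 1.37, 1.67, 1.82 and 1.56 TPM. Only the shorter one was low in KO 1, where it made up 20.7% of the gene's TPM, against 75.4 to 85.8% in the other 3 libraries. The longer transcript shares 873 exonic bases with Hmgxb3 on the opposite strand (16.0 to 25.4 CPM), and the strand setting of the quantification is unstated, so reads of the 2 genes may not be separated. At gene level the KO 1 value is therefore less far below the others than that of the shorter transcript.

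Among the lysosomal and scavenger genes (median log2 fold change -0.90), 0 of 3 passed with genotype alone and Ctss passed with the prefix. Cd68, a glycoprotein of late endosomes and lysosomes, stood at 14.0 (WT 1), 24.7 (WT 2), 8.09 (KO 1) and 12.6 CPM (KO 2). The groups did not overlap, but KO 2 was near WT 1. Its log2 fold change was -0.90 (SE 0.35, unadjusted p = 0.0420, adjusted p = 0.9998). Msr1, scavenger receptor A, which takes up modified lipoproteins, stood at 1.75, 4.60, 1.45 and 1.99 CPM, where WT 2 alone was high.

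The 3 C1q genes encode the chains of the complement protein that opens the classical pathway, and resident tissue macrophages make much of it. Their profiles across libraries were nearly the same, and 0 of 3 passed the test between genotypes. C1qa stood at 26.5 (WT 1), 16.7 (WT 2), 7.58 (KO 1) and 25.5 CPM (KO 2). C1qb stood at 34.2, 24.0, 8.71 and 34.4 CPM, and C1qc at 26.0, 19.0, 6.84 and 27.2. In each, WT 1 and KO 2 were nearly equal, WT 2 was lower and KO 1 was lowest, so the genotypes overlapped. Their fitted log2 fold changes were -0.38, -0.43 and -0.40 (SE 0.56 to 0.60), and each turned positive without KO 1, to between 0.24 and 0.27.

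Of the 4 Fc receptor and adaptor genes 0 passed, with a median log2 fold change of -0.57. Tyrobp, which encodes the signalling adaptor DAP12 that TREM2 needs, stood at 14.0 (WT 1), 9.75 (WT 2), 4.81 (KO 1) and 9.53 CPM (KO 2). KO 2 and WT 2 were nearly level. Fcer1g, the common gamma chain of Fc receptors, stood at 9.56, 8.03, 3.75 and 8.95 CPM. The IgG receptor Fcgr3 stood at 11.9, 8.11, 2.58 and 11.7 CPM, and the high-affinity receptor Fcgr1 at 1.88, 1.96, 0.547 and 1.85 CPM. In all 4 genes KO 1 alone was low. Fcgr1 and Aif1 each rest on 14 counts in KO 1, so their values there are imprecise.

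All 4 resident genes were lowest in KO 1, and 0 of 4 were called, at a median log2 fold change of -0.41. Mrc1, the mannose receptor CD206, stood at 17.7 (WT 1), 17.0 (WT 2), 5.55 (KO 1) and 16.6 CPM (KO 2). Folr2, folate receptor beta, stood at 3.12, 3.76, 1.06 and 3.60 CPM. For both, 3 libraries were close to each other and KO 1 was far below. Lyve1, a hyaluronan receptor also present on lymphatic vessels, stood at 1.40, 1.93, 0.821 and 1.95 CPM on 21 to 71 counts. Cd163, the scavenger of haptoglobin-bound haemoglobin, stood at 6.34, 6.15, 1.80 and 9.94 CPM, so that KO 1 was the lowest and KO 2 the highest library. Within S1 the 4 differences in log2 CPM ran from -1.77 (Folr2) to -1.17 (Lyve1). Within S2 they were -0.10 for Mrc1, 0.20 for Folr2, 0.46 for Lyve1 and 0.64 for Cd163. Exons of Folr2 overlap Gm10602 on the opposite strand (2.10 to 3.28 CPM), which makes this low gene uncertain.

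Of the 4 lipid-associated genes 0 passed with genotype alone, and the median of their log2 fold changes was -1.03. Without WT 2 this median was -0.45, and that of the identity genes was -1.03. All 4 were highest in WT 2, which was the highest library for 17.9% of all genes. Lgals3, the galactoside-binding lectin galectin-3, stood at 33.5 (WT 1), 67.1 (WT 2), 22.8 (KO 1) and 27.9 CPM (KO 2). The WT mean was 50.3 ± 23.7 CPM (SD, n = 2) and the KO mean 25.3 ± 3.60 CPM (SD, n = 2). The KO libraries lay below both WT libraries, by less than the gap between WT 1 and WT 2. The log2 fold change was -0.99 (SE 0.35, unadjusted p = 0.0308, adjusted p = 0.9998), and -0.41 without WT 2.

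Gpnmb, a lysosomal glycoprotein of lipid-laden macrophages, stood at 17.9 (WT 1), 35.7 (WT 2), 10.7 (KO 1) and 14.8 CPM (KO 2). Its order was that of Lgals3, and its log2 fold change of -1.07 (SE 0.36, unadjusted p = 0.0261) became -0.49 without WT 2. Trem2, the lipid-sensing receptor, stood at 2.90, 3.27, 1.17 and 1.92 CPM. It was the 1 lipid-associated gene whose WT libraries were close to each other with both KO libraries below them. Its log2 fold change was -0.99 (SE 0.35, unadjusted p = 0.0331), and between -1.40 and -0.68 with any 1 library left out. It rests on 30 to 120 counts.

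Spp1, the secreted matrix protein osteopontin (chromosome 5, 104435118 to 104441050), stood at 2.61 (WT 1), 14.7 (WT 2), 3.01 (KO 1) and 1.47 CPM (KO 2). WT 2 alone was high, and the genotypes overlapped because KO 1 lay above WT 1. Its log2 fold change was -1.96 (SE 0.82, adjusted p = 0.9998) with genotype alone and -1.65 (SE 0.33, adjusted p = 0.0281) with the prefix. Without WT 2 it was -0.22. Exons of Spp1 share up to 181 bases with Gm42793 on the same strand, for which no count was available, so some reads may not be separated. Without WT 1, in which case the lone WT library is assumed to vary like the KO libraries, 2 of the 31 were called lower, against 0.115% of all genes. They were Spp1 (log2 fold change -2.71, adjusted p = 0.000336) and Gpnmb (-1.49, adjusted p = 0.0253).

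Of the 4 monocyte genes 0 passed, at a median log2 fold change of -0.56. Ccr2, the receptor for CCL2 that brings monocytes out of the blood, stood at 6.98 (WT 1), 5.01 (WT 2), 2.38 (KO 1) and 4.46 CPM (KO 2). Itgam, the integrin CD11b, stood at 8.25, 10.5, 3.13 and 6.89 CPM. For these 2 genes each KO library was below each WT library. Cx3cr1, the fractalkine receptor, stood at 2.71, 2.18, 2.23 and 1.78 CPM, a narrow range in which KO 1 was not low. Cd14, the lipopolysaccharide co-receptor, stood at 4.27, 3.89, 2.58 and 3.94 CPM.

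Of the 3 further genes, Itgax, the integrin CD11c of dendritic cells and some fat macrophages, stood at 5.45 (WT 1), 3.97 (WT 2), 1.25 (KO 1) and 3.77 CPM (KO 2). Clec10a, a galactose-type lectin, stood at 5.35, 4.76, 1.99 and 4.22 CPM. It may share reads with its close relative Mgl2 (3.40 to 6.44 CPM), which was not measured, so it is uncertain. Itgax and Clec10a both lay lower in the KO libraries, with KO 2 just under WT 2. Cd9, a tetraspanin of many cell types, stood at 10.2, 11.1, 11.0 and 8.64 CPM. KO 1 lay between the WT libraries, as it also did for Cx3cr1 and Spp1.

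Averaged over their genes, the classes differed between libraries of the same genotype as well as between genotypes. The resident class stood at a mean log2 CPM of 2.26 (WT 1), 2.42 (WT 2), 0.84 (KO 1) and 2.57 (KO 2). The lipid-associated class stood at 3.06, 4.21, 2.47 and 2.58, and the monocyte class at 2.36, 2.22, 1.39 and 1.97. KO minus WT was -0.64 for the resident class, -1.11 for the lipid-associated class and -0.61 for the monocyte class. Within S1 these differences were -1.57, -1.74 and -0.83, and within S2 they were 0.30, -0.48 and -0.40. Of these 3 classes only the resident class had opposite signs in the prefixes. No test was made of these class means.

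Set against the identity genes of the same library, the lipid-associated class separated the libraries by prefix. The difference in mean log2 CPM was -1.72 in WT 1 and -1.85 in KO 2 (prefix S2), and 0.00 in WT 2 and -0.35 in KO 1 (prefix S1). Lipid-associated genes were thus higher relative to identity genes in both S1 libraries. For the monocyte class the same difference was -2.41 and -2.46 in WT 1 and KO 2, and -1.99 and -1.43 in WT 2 and KO 1. The resident class stood at -2.51 in WT 1, -1.86 in KO 2, -1.80 in WT 2 and -1.98 in KO 1, with WT 1 apart from the other 3.

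**Figure D4:**
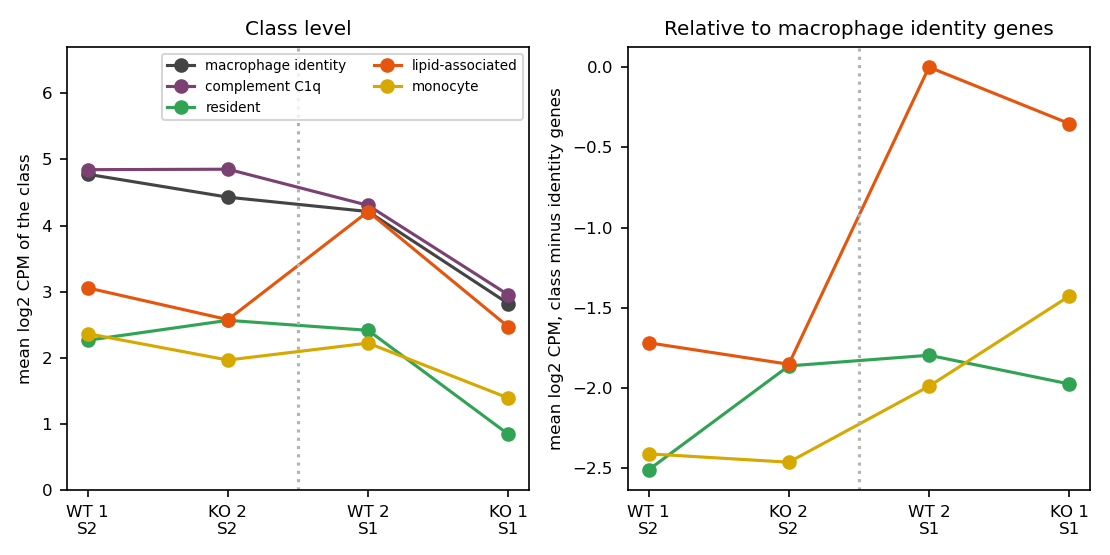
Mean log2 CPM of the genes of each class in the 4 libraries (left), and the same after subtracting the mean of the 6 identity genes of that library (right). Libraries are ordered by prefix and the lines only join points of a class. On the right the lipid-associated class is at -1.72 and -1.85 in the S2 libraries and at 0.00 and -0.35 in the S1 libraries.

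The prefix term of the edgeR fit called more of the 31 genes than genotype did. Higher in S2 were 7 of the 31 (Adgre1, Csf1r, Mpeg1, Lyz2, Ctss, C1qa and C1qb), against 1.59% of all genes. Lower in S2 was 1 of the 31, Spp1, against 1.55%. The log2 difference, S2 over S1, was 1.43 for Adgre1 (adjusted p = 0.0201), 1.16 for Lyz2 (adjusted p = 0.0164) and -1.86 for Spp1 (adjusted p = 0.0181). Both S2 libraries lay above both S1 libraries for 12 of the 31, against 27.3% of all genes. KO 1, the lowest library, is 1 of the 2 in S1.

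Genes that work with the 31 were read from lists compiled with the earlier results known. Among 12 genes of DAP12 and Fc receptor signalling, 11 were tested and none passed, with a median log2 fold change of -0.22. The kinase gene Btk stood at 1.59 (WT 1), 1.74 (WT 2), 0.782 (KO 1) and 1.13 CPM (KO 2), and the phosphatase gene Ptpn6 at 3.79, 4.44, 2.81 and 3.50. Both were lower in each KO library than in either WT library. Among 10 lineage factor genes none passed (median -0.38). Spi1, which encodes PU.1, stood at 3.73, 3.67, 1.52 and 2.95 CPM, again lowest in KO 1.

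Of 9 genes for growth factors and chemokines, 7 were tested and none passed. The growth factor genes for CSF1R did not follow the macrophage genes. Csf1 stood at 11.9 (WT 1), 20.0 (WT 2), 14.4 (KO 1) and 13.7 CPM (KO 2), and Il34 at 3.54, 5.66, 4.26 and 3.77, so that both were highest in WT 2 and KO 1 was between the WT libraries. Ccl2, the ligand of CCR2, stood at 3.31, 4.36, 2.70 and 1.54 CPM, and its relative Ccl7 at 1.69, 2.94, 1.25 and 0.686 (log2 fold change -1.26, SE 0.47, unadjusted p = 0.0377). For these 2 genes KO 2 was the lowest library, which it was for only 3 of the 31 macrophage genes.

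Further genes were read for each of the 3 contrasted states, and the resident ones were again lowest in KO 1. Of 16 other genes tied to lipid-laden macrophages none passed (median log2 fold change -0.05), and several are also adipocyte genes. Their fitted changes were below 0 for 10 and above 0 for 6. KO 1 was the lowest library for 6 of the 16, against 34.9% of all genes. Atp6v0d2, a lysosomal proton pump subunit, stood at 4.33 (WT 1), 4.57 (WT 2), 1.02 (KO 1) and 3.67 CPM (KO 2), and the elastase gene Mmp12 at 8.28, 12.2, 3.91 and 9.77. Of 12 other resident genes 9 were tested, 0 passed with genotype alone and all 9 were lowest in KO 1, against 34.9% of all genes. The median log2 fold change of the 9 was -0.15. Within S2, 6 of them were higher in KO 2 than in WT 1 and 3 were lower. Igf1, a growth factor also made by adipocytes and stroma, was the 1 called with the prefix, at 11.6, 15.3, 5.71 and 6.41 CPM (log2 fold change -1.14, adjusted p = 0.0103). Of 10 other monocyte genes 9 were tested and none passed (median -0.02). S100a4 stood at 4.43, 11.0, 7.35 and 2.98 CPM and Ly6c2 at 2.39, 5.80, 6.60 and 3.32, and KO 1 was not the lowest library for either.

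Other cell types also differed between libraries, and their part in the macrophage values was not tested. Of 9 pan-leukocyte genes 8 were lower in both KO libraries than in both WT libraries, against 13.1% of all genes, and 8 were lowest in KO 1, against 34.9%. Ptprc, which encodes CD45, stood at 11.5 (WT 1), 8.96 (WT 2), 5.55 (KO 1) and 8.64 CPM (KO 2), and the list summed to 87.2, 109, 55.5 and 75.1 CPM. All 7 fibroblast genes were lowest in KO 1 too (sums of 600, 841, 348 and 548 CPM), and Dpt, at 71.0, 61.2, 30.4 and 48.4 CPM, was called lower once the prefix was a term (adjusted p = 0.0404). In KO 1 the 7 endothelial genes summed to 1202 CPM, against 704, 910 and 782 in WT 1, WT 2 and KO 2, and 5 red cell genes to 2026 CPM, against 1131, 1069 and 908. Neutrophil genes summed to 2.71 to 5.12 CPM in every library, with Ngp and Ly6g at 0 counts in all 4. The 8 T cell genes summed to 1.53 (WT 1), 2.10 (WT 2), 4.10 (KO 1) and 2.30 CPM (KO 2), so KO 1 was the highest library for them.

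**Figure D5:**
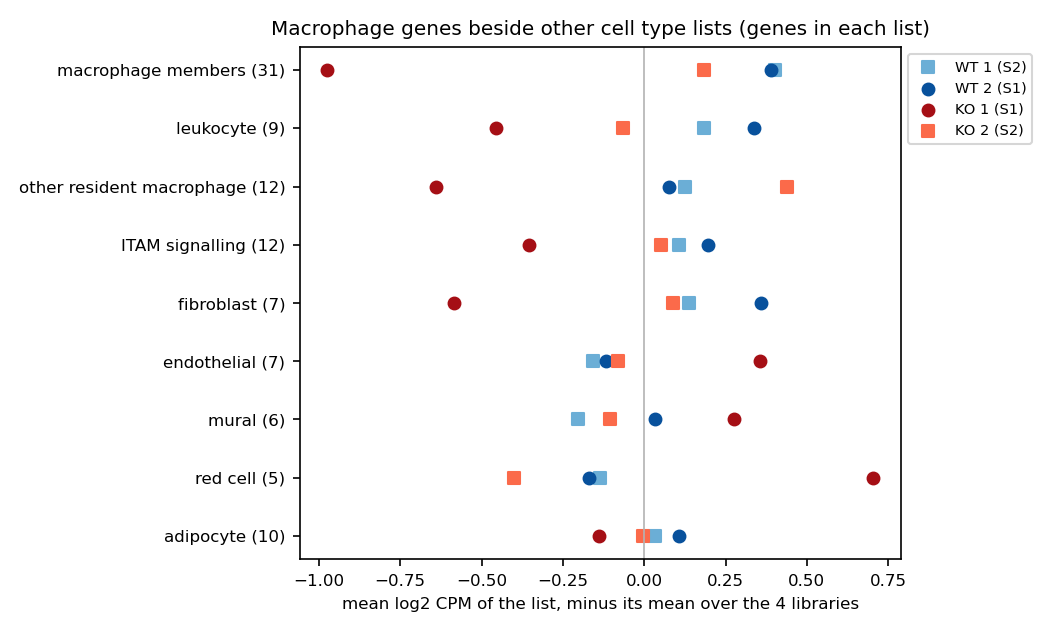
Mean log2 CPM of each gene list in each library, relative to its mean over the 4 libraries, with the number of genes listed in brackets. KO 1 is the lowest library for the macrophage, other resident macrophage, leukocyte, ITAM (DAP12 and Fc receptor) signalling and fibroblast lists. It is also the lowest, by little, for the adipocyte list, and the highest for the endothelial, mural and red cell lists.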

How the data were processed

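Brown adipose tissue RNA was extracted and made into stranded mRNA libraries, per the labels' protocols. Kallisto 0.45.0 and the build mm10 are named, per the submitters' processing notes. The sources used here give neither the transcript set nor the strand setting. The authors deposited, per the file headers, an estimated count and a TPM value for each of 141450 transcripts. In these files reads that match several transcripts are split between them, so genes with near copies are uncertain.

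Transcripts were assigned to genes by GENCODE vM21 (GRCm38). The 97.7% that matched were kept, and the rest held 0.992 to 1.04% of counts. Each gene's estimated counts were added up and rounded, and deposited TPM values were summed per gene. Promoters came from RefSeq (GRCm38.p6). The members and lists were chosen with earlier results of these data known.

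The test was edgeR 4.0.16 (quasi-likelihood, R 4.3.3) on all 4 libraries, with TMM scaling, filterByExpr (minimum count 10, total 15), genotype as the sole term and Benjamini-Hochberg adjustment over 15643 genes at 0.05. It leaves 2 residual degrees of freedom. Each SE is the fitted change divided by the root of its F statistic. Log2 CPM used a prior count of 2. The script was tested on simulated data. Alternatives were DESeq2 1.42.0 and its size factors, limma 3.58.1 (voom, and log2 TPM with pseudocounts of 1 and 0.1), other filters, blocks for the prefix or replicate number, each library left out, and the mitochondrial and 10 most abundant genes left out. Named genes were the 31 members, Atf4, Ptprc, Csf1, Il34, Ccl2 and Spi1, and up to 4 genes with the smallest p of each other list. Lyz1, Mgl2, Hmgxb3, Gm10602, Ngp and Ly6g were named after their values were seen, and Gm42793 for its overlap with Spp1.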

Additional observations from a re-analysis of the deposited data

How the results depend on the processing

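All 31 genes had a fitted change below 0 in 12 of the 14 alternatives, against 21 without KO 1 and 30 without KO 2. Of 434 gene values under 14 alternatives, 424 stayed on their side of the threshold, 10 passed it and 0 were called in the opposite direction. The number of the 31 called, 0 in the main test, was 6 with no filter on low counts (Adgre1, Cd68, Ctss, Gpnmb, Lgals3 and Spp1, over 26873 genes, of which 0.473% were called lower), 2 with the prefix as a block and, with 1 library left out, 0 to 2. Over all genes, 122 were called, against 457 with no filter, 320 with the prefix as a block, 218 with DESeq2 and 78 to 205 with 1 library left out. The median log2 fold change of the 31 was -0.70, against -0.78 with the prefix as a block, -0.78 with limma-voom, -0.66 on log2(TPM + 1), -0.85 on log2(TPM + 0.1), where the median of all genes was -0.11, and -1.51 to -0.15 with 1 library left out. The replicate number as a block gave a median of -0.79, 0 of the 31 and 164 genes called. Deviations from the group means correlated at -0.38 between same-numbered libraries, so the numbers do not pair them. The crossed pairing is the prefix block, with the 320 and 2 calls above. The median within S1 was -1.47 and became -1.71 on log2(TPM + 0.1). The prefix term called 8 of the 31, and, in alternatives chosen after seeing the data, 16 with no filter and 5 with at least 1 CPM in 2 libraries. The cause of these shifts was not tested. Genes with few counts, such as Aif1 and Fcgr1 with 14 each in KO 1, are the least precise.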

Other observations

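Of 11 genes used as markers of inflammatory activation, 4 had enough counts to be tested and none passed in edgeR. Of these 4, 2 had a fitted change below 0 and 2 above 0, at a median log2 fold change of -0.05. Il1b, the cytokine interleukin-1 beta, stood at 1.31 (WT 1), 0.572 (WT 2), 0.391 (KO 1) and 0.514 CPM (KO 2), and Nos2, inducible nitric oxide synthase, at 14.2, 15.1, 13.3 and 9.67. Of 10 genes used as markers of alternative activation, 7 were tested and none passed. Il4ra, the interleukin-4 receptor chain, stood at 16.8, 19.8, 24.5 and 21.7 CPM, higher in both KO libraries, and Retnla, a secreted resistin-like protein, at 7.04, 3.21, 2.31 and 5.28 CPM, lower in both S1 libraries. Of 6 mast cell genes 5 were tested, with 2 fitted changes below 0 and 3 above 0 (median log2 fold change 0.098). Kit, the stem cell factor receptor, which other cells also carry, stood at 15.04, 12.98, 4.88 and 6.92 CPM and was called lower with the prefix as a block (log2 fold change -1.26, adjusted p = 0.00264), but not with genotype alone (-1.24, adjusted p = 0.177).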
